A study of Mus musculus with 454 samples.

Results

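The genes described here encode the intermediate filaments of mature neurons: Nefl, Nefm and Nefh (the light, medium and heavy neurofilament subunits), Ina (alpha-internexin) and Prph (peripherin). They were chosen by gene symbol, as 5 of the 36920 genes in the read table of individually picked vagal neurons and 5 of the 28001 genes in the gene table of a droplet library. All cells came from nodose ganglia, where vagal sensory neurons have their cell bodies, of wild type C57BL/6 mice. The droplet library (10x Genomics) is 1 pool of cells from mice of 6 weeks. The picked cells came from mice of 8 to 12 weeks and were sequenced one by one with Smart-seq2. Header lines in the read table give each picked cell a mouse and a target code (GastG, GastP, IntP, IntM, IntD, IntL, Port or na). The sources used here do not expand these codes, so no code is spelled out. Gast means GastG and GastP together, and Int means IntP, IntM, IntD and IntL.

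Neurofilaments are heteropolymers that fill the axon and set its calibre. Nefl forms the core, Nefm and Nefh add long side arms that are phosphorylated and space the filaments, and alpha-internexin can join them as a further subunit. Peripherin, a filament protein of peripheral neurons, co-assembles with them. In sensory ganglia, heavy neurofilament is a classical mark of large myelinated neurons, while peripherin is associated with small unmyelinated ones, and neurofilament messages are known to fall and peripherin to change after axon injury.

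In the mouse annotation used (GENCODE M21, GRCm38), Nefl lies at chr14:68083863-68089095 on the plus strand and Nefm at chr14:68082590-68124846 on the minus strand. A longer annotated transcript of Nefm runs across Nefl, so that 1108 exonic bases of the pair overlap on opposite strands. No source used here says whether picked-cell reads were counted by strand, and reads of that stretch could then go to either gene. Nefh lies at chr11:4938754-4948064 (minus), Ina at chr19:47014698-47025327 (plus) and Prph at chr15:99055174-99058978 (plus).

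Across vagal neuron clusters Prph had the narrowest and Ina the widest range of level among the members, so the promoters of this pair are shown side by side. They are the 250 bases before the annotated start, 5′ to 3′, from RefSeq (GRCm38.p6), at chr15:99054924-99055173 for Prph and chr19:47014431-47014680 for Ina, both plus strand. Capitals mark TATAAA and GGGCGG, each searched on both strands (CCGCCC is the reverse of GGGCGG). The table used holds 2 of the 5 members.
Prph: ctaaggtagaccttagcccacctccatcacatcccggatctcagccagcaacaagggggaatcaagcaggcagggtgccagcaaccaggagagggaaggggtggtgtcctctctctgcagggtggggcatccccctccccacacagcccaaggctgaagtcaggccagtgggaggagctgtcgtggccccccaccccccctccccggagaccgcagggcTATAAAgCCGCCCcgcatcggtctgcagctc
Ina: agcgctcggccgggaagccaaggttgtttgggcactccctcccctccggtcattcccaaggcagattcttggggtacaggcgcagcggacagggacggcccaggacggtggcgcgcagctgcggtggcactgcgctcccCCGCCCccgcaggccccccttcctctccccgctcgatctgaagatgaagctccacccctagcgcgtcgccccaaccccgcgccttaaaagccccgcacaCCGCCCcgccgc
Prph has 1 match to TATAAA, which begins 31 bases before the start, and 1 to GGGCGG, and no bases are shared between them. Ina has 0 matches to TATAAA and 2 to GGGCGG. Of 32851 promoters of this length, 12.4% hold TATAAA and 32.7% hold GGGCGG. G and C make up 65.2% of the Prph and 70.8% of the Ina window, against a median of 52.4%. A match describes these letters and is not a binding site.

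The droplet matrix held 1108 cells with 68051490 UMIs (unique molecular identifiers, counts of captured molecules), from 13505 to 169263 per cell. Clustering gave 1087 neurons in 27 clusters and 21 satellite glia (Apoe, Fabp7). One neuron cluster of 47 cells was jugular-like by a list of 5 markers with Prdm12 at 103.8 CPM. Prdm12 was at most 6.79 CPM in each of the other clusters, whose 1040 neurons are given no type name. Of the picked cells 3 failed the gene minimum, and the others had a median of 1617516 reads. In all, 29 mice entered the comparisons: 5 GastG, 3 GastP, 4 IntP, 3 IntM, 3 IntD, 3 IntL and 8 Port. The median reads per cell of a mouse ran from 1078793 to 2381879 over all codes.

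All members except Ina were abundant in nearly every vagal neuron. In CPM (counts of a gene scaled to a fixed total, here of UMIs and for picked cells of reads) over the summed droplet neurons, Prph stood at 2160, Nefl at 1481, Nefm at 572, Nefh at 349.3 and Ina at 29.9. A median neuron held 70 UMIs of Nefl, 20 of Nefm, 12 of Nefh and 1 of Ina. Each UMI is 1 molecule end, so these levels do not scale with transcript length. At least 1 UMI was found in 99.8% of neurons for Prph and Nefl, 99.4% for Nefm, 99.3% for Nefh and 51.1% for Ina. With every neuron thinned to 10000 UMIs, the share for Ina was 22.999%.

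Satellite glia, which should lack these genes, carried 94.9 CPM of Prph, 88.9 of Nefl, 47.4 of Nefm and 20.8 of Nefh. In glia Ina had 1 UMI, a level of 2.96 CPM (exact Poisson interval 0.0751 to 16.5). A Nefl UMI was present in 66.7% of glia, at a median of 14919 UMIs per cell against 56119 in neurons. After thinning, the Nefl share was 42.9% of glia and 99.6% of neurons. Intervals here and below are exact, at 95%, and cover counting error in 1 library only, so no test between cell types was made. Among the cells counted as neurons, 7 had under 200 CPM of Prph. Of these, 6 belonged to cluster 3, which is led by endothelial genes such as Cldn5, and held 13705 to 15809 UMIs.

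The jugular-like neurons, which carry Calca and Tac1 and are known as the somatosensory-like portion of the vagal ganglia, had more of the side-arm subunits. The ratio of CPM in jugular-like to that in all other neurons was 2.56 for Nefh (interval 2.46 to 2.66), 1.56 for Nefm (1.501 to 1.619) and 1.26 for Nefl (1.23 to 1.29). It was 1.01 for Prph (0.984 to 1.03) and 1.03 for Ina (0.839 to 1.26). Nefh within this cluster was uneven: the median jugular-like neuron held 24 Nefh UMIs, the lower quartile was 10 and the upper quartile 115.5.

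Across the 27 neuron clusters, which were made without these 5 genes among the variable genes, the members fell into 3 patterns. The first was shared by Nefl, Nefm and Nefh, which were highest in cluster 23. That cluster of 20 neurons has Slc17a7, Calb1, Kcna1 and Piezo2 among its leading genes, the last a channel for touch and stretch. There Nefl reached 5411 CPM (5279 to 5545), Nefm 4027 (3914 to 4144) and Nefh 2708 (2615 to 2803). Cluster 21 (Cbln2, Spp1, Kcns1) followed with 3887 CPM of Nefl, 2097 of Nefm and 1739 of Nefh. Cluster 16 (Slc18a3, Runx3, Pvalb) held 2803 CPM of Nefl, 2082 of Nefm and 878 of Nefh. The lowest Nefl level, 687 CPM, was in cluster 19 (Aldh1a3, Gfra1). Highest over lowest cluster was 7.87-fold for Nefl, 26.1-fold for Nefm and 22.1-fold for Nefh. Cluster 23 held 1.84% of the neurons, and its cells gave 13.5% of all Nefh UMIs, 12.3% of Nefm and 6.36% of Nefl. Within cluster 21 the Nefh level was uneven, with the median cell at 873 CPM against 1739 for the summed cells.

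The second pattern was that of Prph, which varied less. It was highest in cluster 19 at 2597 CPM and lowest in cluster 23 at 1247, a 2.08-fold range. On the log2 scale, with 1 CPM added, its range was 1.06. This was at the 6.03rd percentile of 11188 genes with at least 200 UMIs, against a median of 2.11. The ranges of Nefl (2.98), Nefh (4.46) and Nefm (4.70) were at the 72.4th, 89.5th and 90.8th percentiles. The ratio of Nefl to Prph UMIs therefore ran from 0.265 (0.246 to 0.284) in cluster 19 to 4.34 (4.10 to 4.59) in cluster 23. In 19.9% of neurons with a UMI of each, Nefl outnumbered Prph.

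The third pattern was that of Ina, whose message was concentrated in a few clusters. Cluster 2 (Rbp4, Gda, Lamp5, Ddc) held 211.3 CPM (195.3 to 228.3) and cluster 24, also led by Gda and Rbp4, held 210.9 (180.4 to 245.05). These clusters, 63 and 19 cells, gave 31.8% and 8.40% of all Ina UMIs. Ina was itself among the 10 leading genes of both. Cluster 26 (Pdyn, Ntrk3) followed at 81.3 CPM and cluster 7 (Gal, Rtp1) at 57.4. Cluster 22, with the fewest UMIs per cell (median 19115), had 0 Ina UMIs, which allows up to 6.47 CPM. Cluster 2 was thus at least 32.6-fold higher, taking 3 UMIs over cluster 22 as the limit. The log2 range of Ina, 7.73, was at the 99.6th percentile of all genes. In the clusters richest in Nefl, 23 and 21, Ina had 2 and 4 UMIs. In cluster 16, the next in Nefl, it had 37 UMIs, in 61.1% of cells, and in cluster 11, at rank 5 in Nefl, it stood at 45.3 CPM. Over the 27 clusters the correlation of Nefl with Ina was -0.094.

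**Figure D1:**
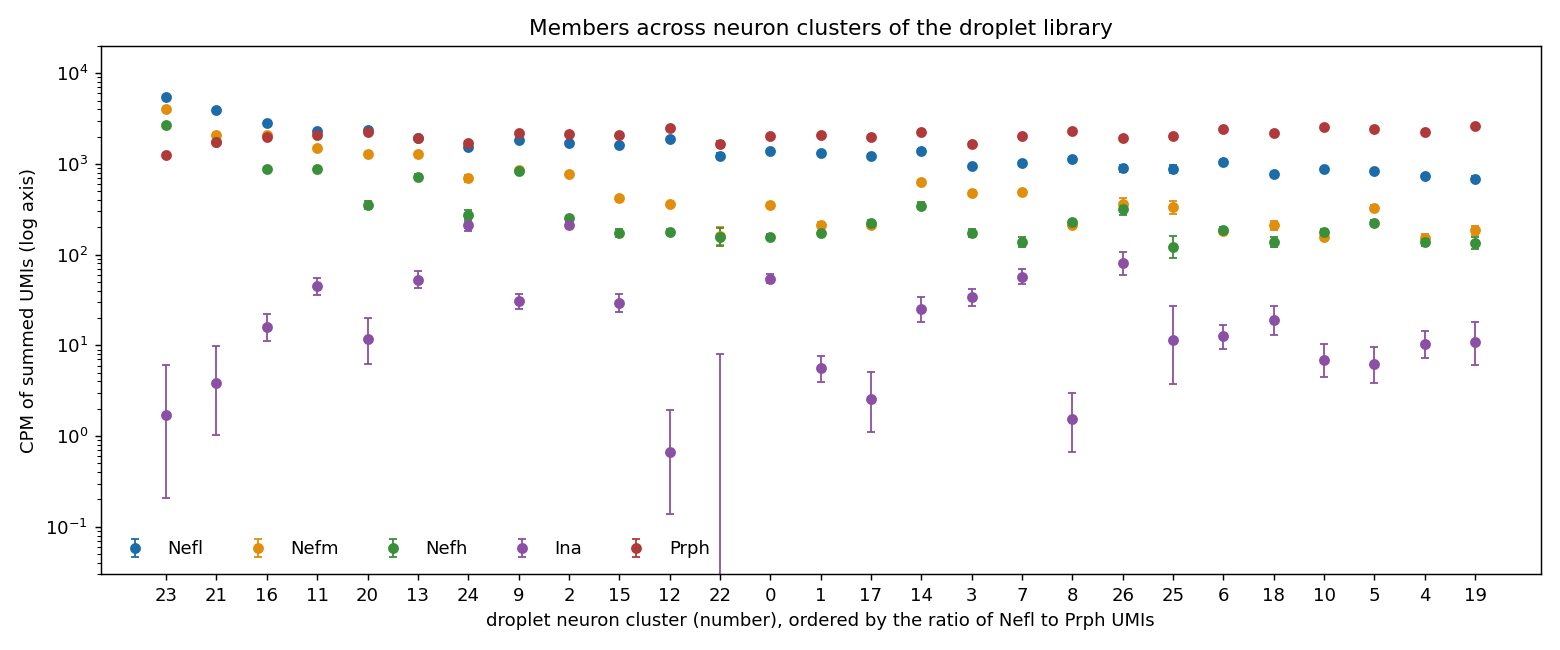
CPM of summed UMIs (log axis) of the 5 members in each of 27 droplet neuron clusters, ordered by the ratio of Nefl to Prph, with exact 95% Poisson bars. Nefl, Nefm and Nefh descend from cluster 23 on the left, Prph rises slightly towards cluster 19 on the right, and Ina peaks in clusters 2 and 24 (0 UMIs in cluster 22, where only the upper limit is drawn).

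As a description over the 27 clusters, log2 levels of Nefl, Nefm and Nefh had Pearson correlations of 0.86 to 0.88 with each other and of -0.51 to -0.54 with Prph. These points share 1 library. The genes most like each member by the same measure were Tuba4a (0.90), Rap1gap and Lrrc49 for Nefl, and Kctd15 (0.93), Vamp1 and Myh10 for Nefm. They were Slc17a7 (0.94), Htr1d and Vamp1 for Nefh, Ninj1 (0.87), Wdr6 and Neurl1a for Ina, and Nipsnap3b (0.87), Gap43 and Rgs17 for Prph. Tuba4a is an axonal alpha-tubulin, Vamp1 a synaptic vesicle protein and Slc17a7 a vesicular glutamate transporter.

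Single neurons gave the same grouping where counts are high. Over 1087 neurons the Spearman correlation of CPM was 0.72 for Nefl with Nefm, 0.56 for Nefm with Nefh and 0.55 for Nefl with Nefh. Within clusters these averaged 0.55, 0.33 and 0.33, positive in 27 of 27, 21 of 27 and 26 of 27 clusters. Prph had correlations of -0.17, -0.22 and -0.13 with Nefl, Nefm and Nefh, and -0.052 to -0.055 within clusters. The values of a neuron share its total in the denominator.

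The level of a member relative to all other UMIs was followed over the total UMIs per neuron, as a description over 1087 neurons of 1 library. Neurons were split into 4 equal groups with median totals of 34117, 48516, 65000 and 97511 UMIs. Prph went from 1853 CPM in the shallowest group to 2187, 2206 and 2211 in the others, a ratio of deepest to shallowest of 1.19 (interval 1.17 to 1.21). Nefl stayed between 1384 and 1521 CPM, with a ratio of 1.07. Nefh stayed between 322.4 and 380.7 CPM, with a ratio of 0.951. Nefm was lower in the deepest group, with 699, 736, 615 and 428.4 CPM and a ratio of 0.613 (0.594 to 0.632). Ina showed the steepest course, with 45.5, 62.2, 30.7 and 9.54 CPM and a ratio of 0.210 (0.179 to 0.246). The median gene had a ratio of 0.8497.

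**Figure D2:**
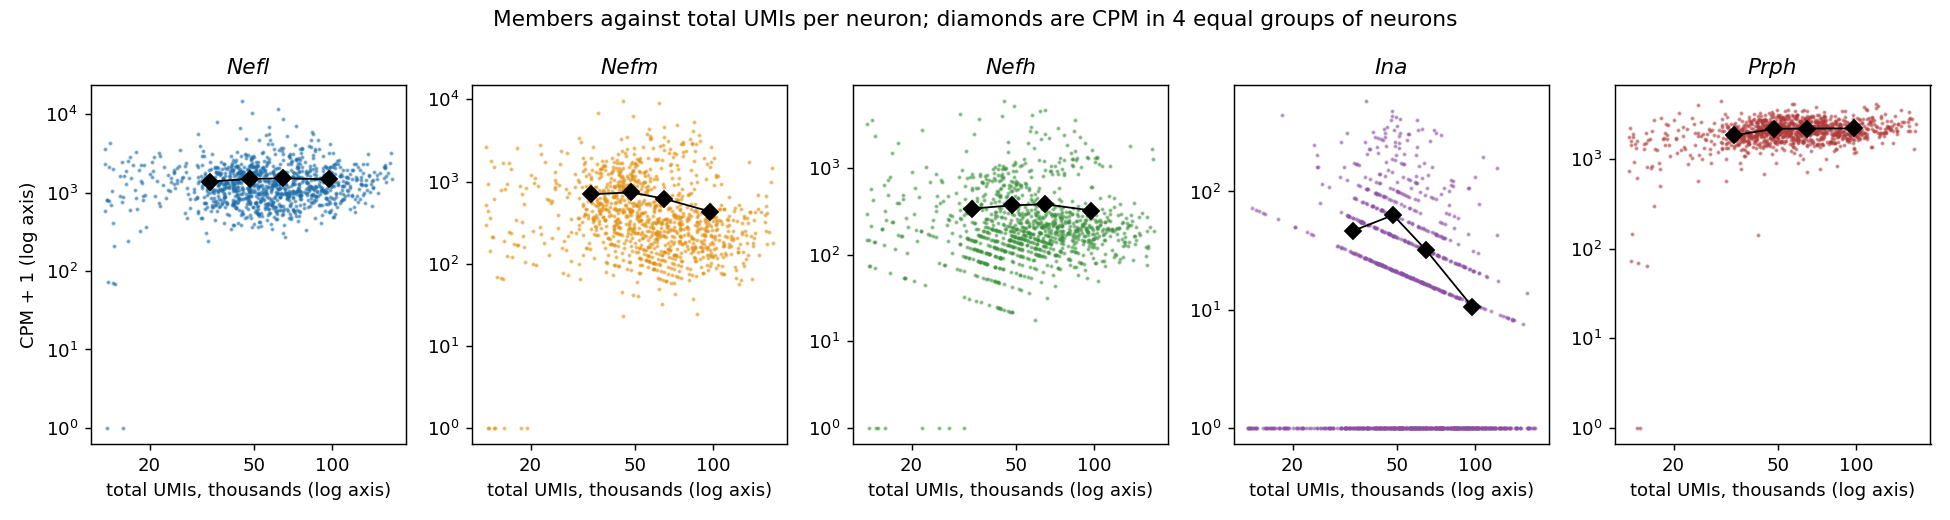
Each dot is 1 droplet neuron, with its total UMIs (log axis, in units of 1000) against CPM + 1 of the member (log axis, scale differing by panel). Diamonds give CPM of summed UMIs in 4 equal groups, nearly level for Nefl and Nefh, higher with depth for Prph and lower in the deepest group for Nefm and Ina.

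Spearman correlations of CPM with the UMIs of all other genes were 0.25 for Prph, 0.043 for Nefl, 0.018 for Nefh, -0.25 for Nefm and -0.21 for Ina. Among 11188 genes these are at the 91.2nd, 48.6th, 41.3rd, 2.65th and 4.29th percentiles, around a median of 0.048. Neuron type moved with depth: the Ina-rich clusters 2 and 24 had medians of 48043 and 41884 UMIs, and cluster 8 (Sst), at 1.53 CPM of Ina, had 111882. Averaged within clusters, the correlation was 0.034 for Nefm, positive in 16 of 27, and 0.039 for Ina, positive in 14 of 26, so clusters went both ways. For Prph it was 0.19 within clusters and positive in 20 of 27, and for Nefl and Nefh it was 0.12 each. Without cluster 3 the values were 0.19 for Prph, -0.0044 for Nefl, -0.029 for Nefh, -0.27 for Nefm and -0.23 for Ina. In raw UMIs rather than CPM, Prph followed total UMIs closely at 0.89, Nefl at 0.67, Nefh at 0.48 and Nefm at 0.20, while Ina stood at -0.12.

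Barcodes outside the filtered matrix, which hold too few UMIs to be counted as cells, were rich in Nefl and Nefm. In the 71432 barcodes of more than 100 and up to 1000 UMIs, Nefl made up 3317 CPM (3290 to 3344) and Nefm 1267 (1251 to 1284). These are 2.24 times (2.22 to 2.26) and 2.22 times (2.18 to 2.25) their levels in neurons, at the 97.99th and 97.8th percentiles of 11188 genes, whose median ratio was 0.789. Nefh was 1.34 times (1.31 to 1.37) and Prph 1.11 times (1.10 to 1.12) the neuronal level, at the 82.02nd and 72.2nd percentiles. Ina was 0.470 times (0.411 to 0.537), at the 13.7th. In these barcodes Nefl thus exceeded Prph (2392 CPM), the reverse of their order in neurons.

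The 1359 barcodes of more than 1000 and up to 13399 UMIs, in which the 6 satellite glia genes summed to 39695 CPM against 1413 in the shallower range, held less of every member, with 625 CPM of Nefl and 584 of Prph. Barcodes outside the filtered matrix held 38.8% of all Nefl UMIs and 38.5% of all Nefm UMIs in the library, against 26.3% of the UMIs of all genes. The shares were 28.04% for Nefh, 24.3% for Prph and 12.2% for Ina. For other axonal and cytoskeletal genes the same ratio was measured over fixed lists. Among 20 genes of axonal microtubules and growth 11 were above 1 with a median of 1.10, led by Tubb2a at 3.61, Tuba4a at 2.56 and Tuba1a at 2.39, while Mapt was at 0.381 and Map2 at 0.496. Among 20 genes of filament transport and handling 3 were above 1, with Hspb1, a small heat shock protein, at 3.004. Over all genes 33.8% were above 1 and 3.88% above 2.

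**Figure D3:**
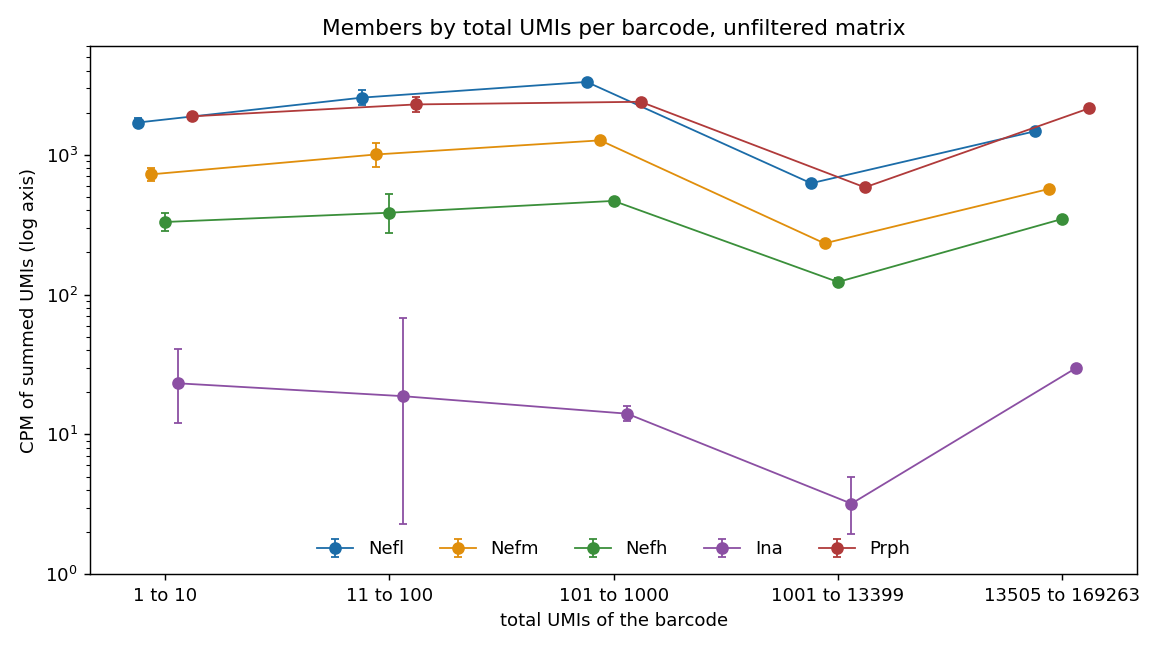
CPM of summed UMIs (log axis, exact 95% Poisson bars) of each member in barcodes grouped by total UMIs in the unfiltered matrix. Nefl and Nefm are highest between 100 and 1000 UMIs, and the last range is that of the filtered cells.

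The picked neurons gave the same order of levels on a per-length scale. Mean CPM per kilobase of annotated exons was 1432 for Prph, 590 for Nefl, 89.7 for Nefm, 46.3 for Nefh and 4.32 for Ina. The exons of Nefm cover 5782 bases, more than its longest transcript of 3680. By its shortest transcript, of 3334 bases, Nefm stood at 155.6, still between Nefl and Nefh. At 10 reads or more, Nefl and Prph were detected in 100% of cells, Nefm and Nefh in 99.8% each and Ina in 31.4% (exact interval 27.1 to 35.9). Values of Nefl, Nefm and Prph were whole reads throughout, but 52.7% of the Ina values and 90.9% of the Nefh values above 0 were whole. The other values are fractions of reads, so low values of Ina are uncertain. Nefl and Nefm went together within mice, with a mean Spearman correlation of 0.64 over cells that was positive in 26 of 26 mice. Reads of their 1108 overlapping exonic bases could go to either gene, and their part in this correlation was not tested. For Nefl with Nefh the mean was 0.20, positive in 17 of 26.

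Each picked cell was matched to the droplet cluster it resembled most, using genes other than the members. Since clusters came from the other protocol, and 63.03% of cells kept their cluster when genes were centred within each protocol, the match is approximate. Over the 9 clusters with at least 10 matched cells, Ina was highest and lowest with 5.04 ± 0.96 (SD, n = 10 mice) in cells matched to cluster 0 and 0.36 ± 0.63 (n = 22 mice) in those matched to cluster 8, on the log2(CPM + 1) scale. Its correlation with the droplet level over those clusters was 0.97, and it was 0.93 for Nefm, 0.83 for Nefh, 0.83 for Prph and 0.80 for Nefl. With genes centred within each protocol, 13 clusters had enough cells. The correlation was then 0.78 for Ina, 0.80 for Nefm, 0.77 for Nefh, 0.70 for Prph and 0.91 for Nefl. The 9 cells matched to cluster 2, from 9 mice, had an Ina level of 7.12 ± 0.94. Of those, 5 were Gast, 3 Port, 1 na and 0 Int cells.

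Levels across target codes were compared on the mean over a mouse's cells of log2(CPM + 1), with the mouse as the replicate. All comparisons came from 1 limma fit and share mice. A mean over cells cannot tell apart a different mix of neuron types and a different level within a type. Prph had the narrowest range, with code means from 11.19 in IntP to 11.56 in IntM. Nefl ran from 10.55 in Port to 11.13 in IntM, Nefm from 8.47 in IntP to 8.87 in IntM, Nefh from 6.997 in IntD to 7.72 in GastP and Ina from 0.78 in IntD to 2.16 in IntL.

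**Figure D4:**
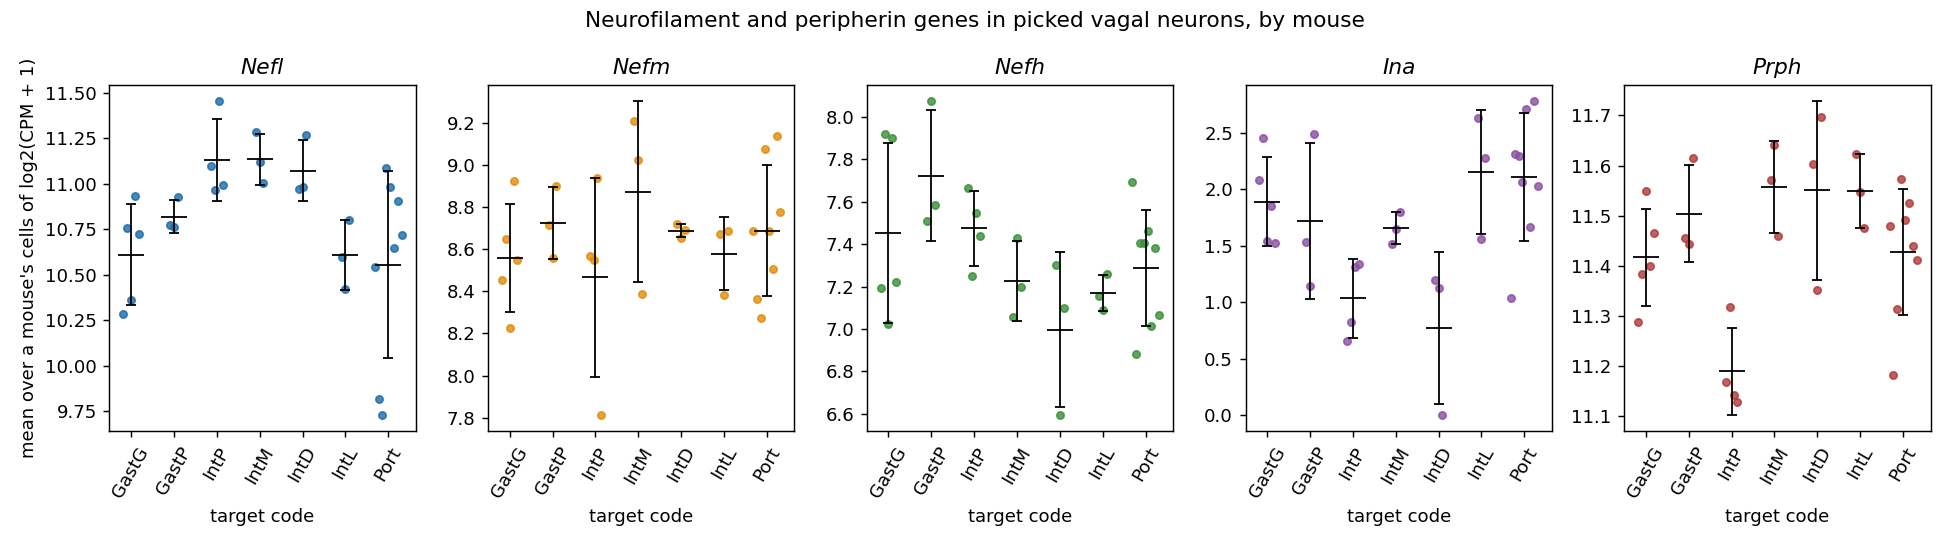
Mean over a mouse's cells of log2(CPM + 1), 1 dot per mouse, for each member (panels, with separate axes) and target code. Black marks are the mean ± SD over mice, and Prph in the 4 IntP mice lies below the other Int codes.

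The first comparison asked whether the levels varied among all 7 codes. By limma's F test, Ina (range of code means 1.38, adjusted p = 0.0197) and Prph (range 0.37, adjusted p = 0.0354) passed, 2 of the 5 members, where 22.3% of 12702 genes passed. Nefl was short of the threshold (range 0.58, adjusted p = 0.0732), as were Nefh (adjusted p = 0.140) and Nefm (adjusted p = 0.682). Nefl passed under TMM scaling (adjusted p = 0.0284), in DESeq2 (0.0386), and without Port mouse 46 (0.0375) or 47 (0.0483). It also passed without Port mice 21, 22 and 27 and GastP mouse 44 (0.00846), and among mice numbered up to 39 (0.000472). The mice left out together were chosen from these data. Among mice numbered up to 39, the only fitted Port mice are 21, 22 and 27, the lowest Port mice in Nefl. The Ina call ended without IntD mouse 19, a mouse of 4 cells (adjusted p = 0.0634). It also ended in the median over cells (0.0875), in edgeR (0.0513) and with the matched cluster in the fit (0.991). The Prph call ended with the matched cluster in the fit (0.110) and without any 1 of 9 mice (IntP 11, 16 and 17, IntM 15 and 20, IntD 14 and 19, IntL 33 and 34), where adjusted p was 0.0512 to 0.116.

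By code means, Prph was lowest in IntP among the Int codes. No comparison of IntP alone was made, and the F test below does not say which code differs. The IntP mice had 11.13, 11.14, 11.17 and 11.32. The IntM mice had 11.46, 11.57 and 11.64, the IntD mice 11.35, 11.60 and 11.70, and the IntL mice 11.48, 11.55 and 11.62. All 4 IntP mice were below all 9 other Int mice. That code was singled out by its mean, and the share of all genes separated in this way was not counted. Across the 4 Int codes Prph changed (range 0.37, limma F test, adjusted p = 0.0193), the 1 member of 5 to pass, where 9.84% of genes passed. It did not pass without IntP mouse 11, 16 or 17 (adjusted p = 0.0711, 0.0783 and 0.0857), or with the matched cluster in the fit (range 0.40, adjusted p = 0.0595). In order of level, IntM, IntD, IntL, GastP, Port and GastG overlapped with their neighbours, and so did GastG and IntP, whose lowest and highest mice stood at 11.29 and 11.32.

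Ina, the subunit with the most restricted pattern, had its lowest means in IntD and IntP. The IntD mice had 0, 1.13 and 1.19, and the IntP mice 0.66, 0.82, 1.32 and 1.34. The value of 0 is that of IntD mouse 19, which had 4 cells, the fewest allowed in the fit, so it is uncertain. The IntM mice had 1.52, 1.65 and 1.80, and the IntL mice 1.56, 2.28 and 2.64. All 3 IntM and all 3 IntL mice were above every IntD and IntP mouse. This grouping was read from the ordered code means, and the share of all genes split in this way was not counted. Ina reached 10 reads in 13.03% of cells per IntD mouse on average, in 16.5% for IntP, 26.7% for IntM, 44.4% for IntL and 41.6% for Port. Across the Int codes it missed the threshold (adjusted p = 0.0606). It passed there without Port mice 21, 22 and 27 and GastP mouse 44 (0.0215), among mice numbered up to 39 (0.0484), and without GastP mouse 44 (0.0443) or Port mouse 21 (0.0413) alone. IntL against the other Int codes gave 1.00 ± 0.33 (SE, adjusted p = 0.0678). It passed there without GastP mouse 44 (0.0493) or Port mouse 21 (0.0457), and with the matched cluster in the fit the difference was -0.20 (adjusted p = 0.935).

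In IntL against the other Int codes 0 of 5 members passed in limma, edgeR or DESeq2, where 5.51% of genes passed in limma. An unadjusted limma p under 0.05 was found for 2 of 5 members and for 2512 of 12702 genes. Nefl was lower in every IntL mouse, at 10.42, 10.60 and 10.80, than in any of the other 10 Int mice. Their lowest, median and highest were 10.97, 11.05 and 11.46. The share of all genes that separate these mice was not counted. The difference was -0.50 ± 0.20 (SE, adjusted p = 0.157). It passed without 4 mice that an earlier look had found high in injury genes (Port 21, 22 and 27 and GastP 44). There the limma adjusted p was 0.0116. It also passed among mice numbered up to 39 (0.0415). These settings change the shared spread and not the Int mice, and the 4 mice were chosen from these data. Port mouse 53 and GastG mouse 41 were kept, at 2486 and 2207 summed CPM of injury genes, beside 2930 in GastP 44. The IntL mice also had the most satellite glia message of the Int mice, 1799 to 2701 summed CPM over 6 genes, against 130 to 1133 in the others. Of those 6 genes Apoe passed, and the part of glial RNA in the Nefl difference was not tested. The median satellite glia gene was 1.61 higher on the log2 scale.

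Gast against Int asked whether cells with the 2 kinds of code differed. Nefh rose by 0.37 ± 0.13 (SE) on the log2 scale (limma, adjusted p = 0.0469), the 1 member of 5 that passed, where 14.8% of genes passed, 9.06% higher and 5.74% lower. The GastG mice had Nefh levels of 7.02, 7.19, 7.22, 7.90 and 7.92 and the GastP mice 7.51, 7.58 and 8.08. The 13 Int mice had a lowest, median and highest of 6.59, 7.25 and 7.67. The groups overlapped, with 5 of 8 Gast mice above the Int median and 3 of 8 above every Int mouse. Jugular-like markers were set beside Nefh: their summed CPM over 5 genes ran from 242.2 to 533 in Gast and from 186.4 to 367.9 in Int mice. GastP mouse 10, highest in Nefh, had the highest sum, and GastG mouse 41, the lowest Gast mouse in Nefh, had the lowest Gast sum. Other Gast mice did not keep this order. GastP mouse 44, with a sum of 250.7, had Nefh at 7.58, above the 7.51 of GastP mouse 9, with 405.6. GastG mouse 43, with 397.9, had 7.22, below the 7.90 of GastG mouse 42, with 352.6. Of the 4 jugular-like markers tested 2 rose, and their part in the Nefh difference was not tested.

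That Nefh call was at the edge of the threshold. It ended under TMM scaling (adjusted p = 0.109), in edgeR (0.0981), in DESeq2 (0.0700), with the median over cells (0.104) and with the matched cluster in the fit, where the difference was 0.087 (0.962). It also ended without any 1 of 18 mice (GastG 8 and 42, GastP 10 and 44, IntP 12, 16 and 17, IntM 15 and 26, IntD 18 and 19, IntL 33, 34 and 39, Port 46, 47, 52 and 53), with adjusted p up to 0.180. TMM moved the share of higher among called genes in this comparison from 61.2% to 45.3%.

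Nefl was below the Int median in 8 of 8 Gast mice, with a difference of -0.27 ± 0.14 (SE, adjusted p = 0.224). The Gast mice ran from 10.29 to 10.93 with a median of 10.76, and the Int mice from 10.42 to 11.46 with a median of 10.99. The difference passed without the 4 mice high in injury genes (-0.30, adjusted p = 0.0333). Ina differed by 0.40 ± 0.23 (adjusted p = 0.265), and on reads summed per mouse, which give weight to cells with many reads, by 1.79 in edgeR (adjusted p = 0.0179) and 1.81 in DESeq2 (0.0106). With the matched cluster in the fit it was -0.12 (adjusted p = 0.977). Nefm differed by -0.0098 ± 0.13 (adjusted p = 0.975) and Prph by -0.00068 ± 0.059 (95% interval -0.12 to 0.12, adjusted p = 0.996).

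GastG and GastP were not separated by any member. In limma 0 of 12702 genes passed (percent called 0), with 549 at an unadjusted p under 0.05, and edgeR called 0 and DESeq2 6. The member differences ran from -0.27 (Nefh) to 0.17 (Ina), all with an adjusted p of 0.996. The intervals were wide, from -0.67 to 0.26 for Nefl and from -0.28 to 0.11 for Prph.

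Port against Gast and Int gave 0 of 5 members past the threshold in limma, edgeR or DESeq2, where 4.98% of genes passed in limma. An unadjusted limma p under 0.05 was found for 2 of 5 members and for 2975 of 12702 genes. The Nefl difference was -0.30 ± 0.13 (SE, adjusted p = 0.167), with a wide spread among the Port mice. The lowest, median and highest Port mice had 9.73, 10.68 and 11.09, against 10.29, 10.93 and 11.46 in the 21 Gast and Int mice.

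The Port mice separated by mouse number. Mice 21, 22 and 27 had Nefl levels of 10.54, 9.82 and 9.73. Mice 46, 47, 51, 52 and 53 had 11.09, 10.98, 10.65, 10.91 and 10.72. The numbers up to 39 and from 40 are the mouse numbers of the header lines, and no source used here says whether they mark separate sessions. Among mice numbered up to 39, Port against Gast and Int was -0.78 for Nefl (limma, adjusted p = 0.000396). Without mice 21, 22 and 27 and GastP 44 it was 0.031 (adjusted p = 0.929). Mice 21, 22 and 27 are the lowest fitted Port mice in Nefl and the only fitted Port mice numbered up to 39. These settings keep or drop them, so their p-values add no support beyond the values of the mice.

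Nerve injury genes moved with these values. Over 13 genes that sensory neurons are known to induce after axon damage (such as Atf3, Sprr1a, Sox11 and Gal), summed CPM was 3607 in Port mouse 21, 9786 in 22 and 5474 in 27. In the other 5 Port mice it ran from 243.1 to 2486, in the 8 Gast mice from 206.2 to 2930 and in the 13 Int mice from 85.5 to 559. Of the 11 injury genes tested, 7 passed in Port against Gast and Int, all higher, where 4.98% of genes passed, a share that ran from 0.496% to 10.9% on leaving out 1 mouse. Among them were Csf1 (1.44, adjusted p = 0.0206) and Cckbr (2.64, adjusted p = 0.0136). Their part in the Nefl level was not tested, and GastP mouse 44, at 2930 CPM, had a Nefl level of 10.92, the highest of the 3 GastP mice, while GastG mouse 41, at 2207 CPM, had 10.36, the second lowest of the 5 GastG mice. In mice 21, 22 and 27 Nefm stood at 8.69, 8.36 and 8.27, Prph at 11.48, 11.18 and 11.31 and Nefh at 7.69, 6.88 and 7.40. Mice 22 and 27 were the lowest fitted Port mice in Nefm and in Prph as in Nefl, and differences between members were not tested. Port mouse 28, with 2 cells and outside the fit, had a Nefl level of 9.67.

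**Figure D5:**
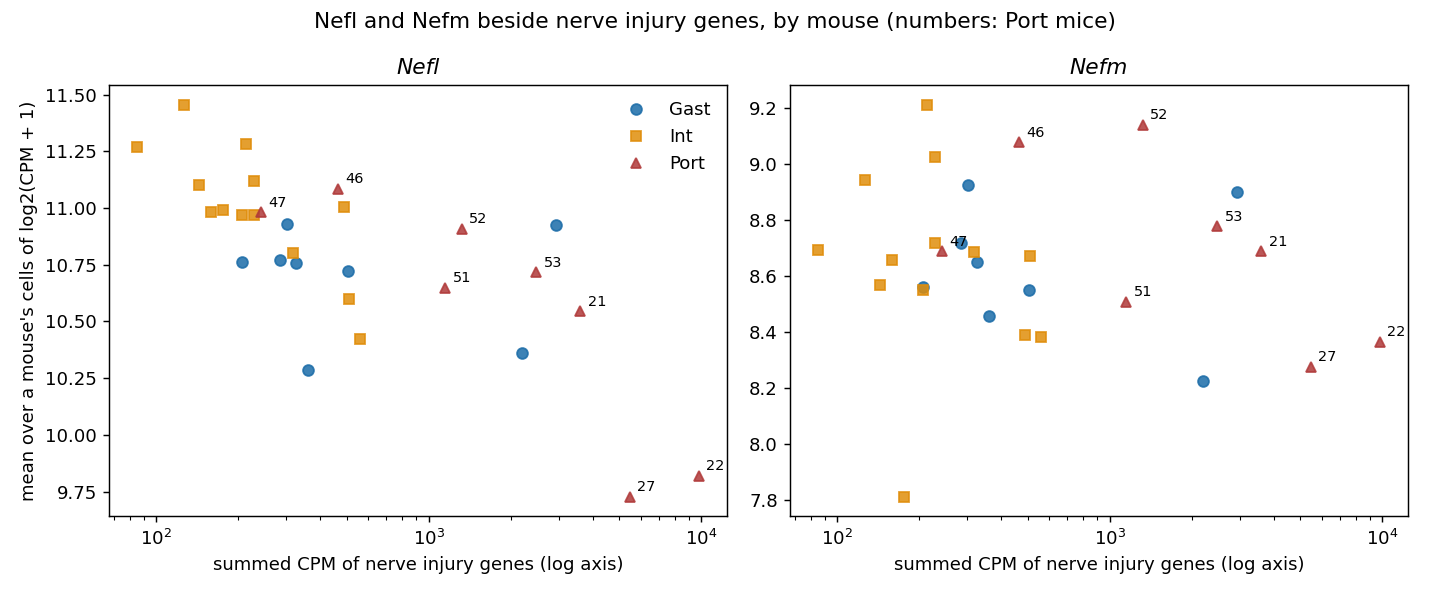
Mean log2(CPM + 1) of Nefl and Nefm per mouse against the summed CPM of 13 nerve injury genes (log axis), 29 mice. Port mice 22 and 27 (triangles, numbered) stand alone at the lower right for Nefl, at 9.82 and 9.73.

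Other cytoskeletal and fibre genes were set against the 14.8% of all genes that passed in Gast against Int, 9.06% higher. With the matched cluster in the fit, 0.0394% of genes passed. Among 6 tested genes of other intermediate filaments (of 12 listed), Vim, a filament gene of many cell types, rose by 1.52 ± 0.30 (SE, adjusted p = 0.000606), and Synm, a linker of filaments, fell by 0.40 ± 0.12 (adjusted p = 0.0213). Of 20 genes of filament transport and handling 0 rose and 1 fell, the kinase gene Gsk3b, by 0.21 ± 0.067 (adjusted p = 0.0371). Of 20 genes of axonal microtubules and growth 1 rose (Stmn1, a tubulin-binding protein, 0.92 ± 0.20, adjusted p = 0.00212) and 1 fell (Map2, by 0.34 ± 0.12, adjusted p = 0.0498). Their median differences were 0.14, 0.0018 and -0.039, against 0.069 for all genes.

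Of 10 tested large fibre genes 3 rose, including the potassium channel genes Kcna1 (1.73 ± 0.46, adjusted p = 0.00969) and Kcnc1 (1.08 ± 0.22, adjusted p = 0.000833). Of 8 small fibre genes 3 rose as well, including Calca (2.65 ± 0.30, adjusted p = 3.1e-07). In Port against Gast and Int, Stmn1 (0.93), Stmn4 (1.60) and Tubb3 (0.38) rose and Sncg fell by 0.22, among the 20 microtubule and growth genes. Of all genes 4.98% passed there, and from 0.496% to 10.9% on leaving out 1 mouse. Without Port 21, 22 and 27 and GastP 44 the share was 1.05%.

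Over the 29 mice the genes most like each member, by Pearson correlation of mouse values among 12702 genes, were Cpeb1 (0.90), Atp6v1a and Ppp1r1c for Nefl and Entpd3 (0.72), Ulk3 and Kazn for Nefm. They were Lrrc14 (0.78), Nol10 and Eif4a3 for Nefh, Zbtb7c (0.85), Fgfr1 and St18 for Ina, and Acadvl (0.82), Uqcc1 and Nmt2 for Prph. These are the highest of many values and carry no test. Over the same mice the correlation was 0.52 between Nefl and Nefm and 0.18 between Nefl and Nefh.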

How the data were processed

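The deposited droplet matrices hold counts of UMIs per gene and barcode, with Cell Ranger 2.0.1 and build mm10 named per the submitters' processing notes. The deposited read table of picked cells holds log2 of reads per gene, with 0.02 reads as the floor, and it was taken back to reads, of which 94.1% of values above the floor were whole within 0.001. An aligner or counter for the picked cells was not given in the sources used here. One further column matched no sample and was not used (1 column). The authors' gene and barcode lists gave names alone.

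The members and gene lists were chosen with earlier results of these data known. Named were all 5 members, per list the 2 highest and 2 lowest genes past the threshold in Gast against Int, and the 3 genes most correlated with each member over mice and over clusters. Some genes that fall under this rule are not reported here. Other genes were named after their values were seen.

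Droplet cells needed 1000 UMIs and 500 genes and were clustered with scanpy 1.11.5 and leidenalg 0.10.2 (2000 variable genes, 30 components, 15 neighbours, resolution 1, then 1.5 within neurons). Scrublet, at an expected rate of 1%, called 3 neurons doublets, which were kept. Picked cells needed 2000 genes. The 12702 genes that reached 10 reads in 5% of the 449 cells kept were tested with limma 3.58.1 in R 4.3.3 on means per mouse of log2(CPM + 1), over mice with at least 4 cells, in 1 fit of 7 codes, with Benjamini-Hochberg adjustment at 0.05 over all genes. Fold changes on this scale are understated for low genes. The design assumed only that the header lines give mouse and code. Cells of a mouse are not replicates, and p-values measure the spread between mice. On data simulated for Gast against Int (12702 genes), limma recovered 89% of genes changed by 1 on the log2 scale, and for GastG against GastP 62%. Alternatives used edgeR 4.0.16 and DESeq2 1.42.0 on summed reads.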

Additional observations from a re-analysis of the deposited data

Results flagged for a closer look

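The 4 mice coded na entered no comparison, and their members are given here because those data stood outside the comparisons. On the log2(CPM + 1) scale, Nefl ran from 10.91 to 11.19 over these mice, Nefm from 8.77 to 9.31, Nefh from 6.81 to 7.37, Ina from 1.33 to 2.18 and Prph from 11.43 to 11.60. The check for a single mouse far from the others of its code (Dixon's test at 95%, by which chance marks about 1 group in 20) was made in 15 groups, for 5 members in GastG, IntP and Port, and marked 0.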

How the results depend on the processing

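Of 489 values recomputed under other settings, 15 fell below the threshold, 15 passed it, 38 moved and 16 changed sign. Moved means that a number of called genes changed by more than a set factor, or a correlation by more than 0.1. It also covers droplet levels and ratios outside their counting interval, and ranges over matched clusters that shifted beyond the SD over mice. The cause of these changes was not tested. The share of genes called is given as a percentage of genes tested.

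With the matched cluster in the fit (80 means of 29 mice in 12 clusters), Gast against Int gave Nefh 0.087, Ina -0.12 and Prph 0.050, with 0.0394% of genes called against 14.8%. Ina was -0.063 in Port, -0.28 in GastG against GastP and -0.20 in IntL. The range was 0.40 for Prph across Int and across all codes, and 0.38 for Ina across all codes. The share called was 2.45% in Port, 0.00787% in IntL, 0.827% across Int and 1.86% across all codes.

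Without Port 21, 22 and 27 and GastP 44, Nefl was -0.30 in Gast against Int, 0.031 in Port, -0.50 in IntL, and ranged by 0.53 across Int and across all codes. Prph in Port was 0.041, Ina 1.00 in IntL and 1.38 across Int. The share called was 1.05% in Port, 0.220% in GastG against GastP, 8.81% in IntL and 16.2% across Int. Mice numbered up to 39 alone gave Nefl -0.78 in Port, -0.50 in IntL and 1.10 across all codes, Nefm -0.18 in Port, and Ina 1.00 in IntL and 1.38 across Int. The share called was then 27.9% in Port, 0.0472% in GastG against GastP and 38.7% across all codes.

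In Gast against Int, Nefh missed the threshold at 0.37 with a pseudocount of 0.1, with no filter and with mice of any cell number, at 0.36 by the median over cells, at 0.30 under TMM, at 0.35 in edgeR and at 0.36 in DESeq2. Nefm was 0.0061 with a pseudocount of 0.1, 0.093 in edgeR and 0.098 in DESeq2. Ina was -0.084 by the median, 1.79 in edgeR and 1.81 in DESeq2. Nefm in Port was -0.073 with mice of any cell number. In GastG against GastP, Nefm was 0.11 in edgeR and 0.12 in DESeq2, and Ina -0.44 by the median. Across all codes Nefl ranged by 0.62 under TMM and 0.55 in DESeq2, Ina by 1.72 by the median and 4.39 in edgeR, and Prph missed the threshold at 0.37 with no filter and with mice of any cell number.

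The share called in Port (4.98%) was 1.03% with no filter, 2.26% by the median, 8.31% with mice of any cell number and 8.77% in DESeq2. In GastG against GastP (0%) it was 0.0107% with no filter, 0.0787% by the median and 0.0472% in DESeq2. In IntL (5.51%) it was 2.54% by the median, 8.41% in edgeR and 10.7% in DESeq2, and across Int (9.84%) 5.32% by the median and 16.05% in DESeq2.

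Leaving out 1 mouse at a time kept 963 of 1044 values. In Gast against Int, Nefm ran from -0.071 to 0.032, Nefh from 0.28 to 0.42 and Prph from -0.028 to 0.018. In Port, Nefm ran from -0.022 to 0.10, Prph from -0.055 to 0.0013 and the share called from 0.496% to 10.9%. In GastG against GastP, Ina ran from -0.12 to 0.55 and the share called from 0% to 0.118%. In IntL, Nefm ran from -0.18 to 0.0022, Ina from 0.76 to 1.30 and the share called from 0.842% to 6.33%. Across Int, Ina ran from 1.12 to 1.68, Prph from 0.35 to 0.46 and the share called from 4.33% to 13.5%. Across all codes, Nefl ran from 0.53 to 0.66, Ina from 1.12 to 1.68 and Prph from 0.35 to 0.46.

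In droplets, correlations with total UMIs were 0.666, 0.197, 0.484 and 0.893 for UMIs of Nefl, Nefm, Nefh and Prph, and 0.034 for Nefm and 0.039 for Ina within clusters. Barcodes of 1 to 10 UMIs held 1700, 725, 330, 23.2 and 1882 CPM of Nefl, Nefm, Nefh, Ina and Prph, against 2620, 1001, 379.96, 11.6 and 1938 over all barcodes outside the filtered matrix. Highest over lowest cluster was 6.92 for Nefl at a Leiden resolution of 0.8, and for Prph 2.44 after thinning and 2.24 as a mean over cells. It gave no ratio for Ina, since the lowest cluster had 0 UMIs. No paired analysis was possible because each mouse carries 1 code and the codes share no mouse numbers.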
